A study of Mus musculus with 14 samples.

Results

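The proteasome degrades proteins tagged with ubiquitin, and its genes were described in livers of mice with acute liver failure and in control livers. The members were the gene rows whose symbol begins with Psma, Psmb, Psmc, Psmd, Psme, Psmf or Psmg followed by a number, and rows with the pseudogene ending -ps were left out. This gave 51 genes of the 55357 counted, with 5 pseudogene rows set aside. Of the 51, 49 had enough counts to be tested. Psmb11, the catalytic subunit of thymus cortical epithelium, had no count in any of the 14 libraries, and 3 counts over a group would be 0.0282 CPM in model and 0.0452 CPM in control. Psmc3ip averaged 0.411 ± 0.199 CPM in model and 0.444 ± 0.178 CPM in control (SD, n = 8 and 6), which was too low to test. Psmc3ip and Psme3ip1 match the symbol rule but encode interacting proteins and no subunits. CPM is the count scaled to the library size, with library sizes adjusted by TMM factors.

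The model group held 8 livers of C57BL/6 males given an intraperitoneal injection of 10 µg/kg LPS and 300 mg/kg D-GalN. The control group held 6 livers of C57BL/6 males given normal saline. All mice were 5 to 6 weeks old at the start of acclimatisation and were killed 24 h after injection. LPS is a bacterial outer membrane component that activates macrophages, and D-GalN depletes uridine nucleotides in hepatocytes and sensitises them to tumour necrosis factor. RNA came from whole liver at 1 time point, and nothing in the labels says whether each sample was a separate animal. The p-values therefore reflect the spread among the samples, which may be technical in part.

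Gene counts summed to between 10329469 and 16639972 per model library and between 7914120 and 14463540 per control library. Summed hepatocyte markers (7 genes, among them albumin, Alb) reached 73655 to 89037 CPM in model livers, against 48499 to 71470 CPM in control livers. Of these 7, Alb and Fgb were called higher and 5 were not called, and with library totals none of them was called. Alb carried most of the sum, at 40619 to 62925 CPM in model and 20249 to 48574 CPM in control. Neutrophil markers were higher in 10 of 10 cases, with a summed level of 1238 to 2868 CPM in model and 3.79 to 16.7 CPM in control, where Ly6g was at 0 in every library. Of 7 monocyte and macrophage markers 5 were higher, with sums of 1028 to 1506 CPM in model and 547 to 1088 CPM in control. F10 and Fn1, which were not called, carried most of this sum. They averaged 492 and 452 CPM in model and 471 and 207 CPM in control. The 5 called markers had log2 fold changes between 2.73 (Plac8) and 6.58 (Chil3). Of 7 tested markers of T and NK cells 6 were higher, with sums of 9.48 to 27.2 CPM in model and 3.67 to 9.65 CPM in control. Of 3 tested dendritic cell markers 2 were higher, and all 7 listed summed to 5.77 to 10.3 CPM in model and 4.12 to 5.885 CPM in control. None of 3 tested B cell markers was called (median log2 fold change -0.13). All 5 red blood cell markers were higher, with sums of 1210 to 25560 CPM in model and 422 to 1611 CPM in control, and so were all 5 cholangiocyte markers, with sums of 59.8 to 125.3 CPM in model and 31.0 to 56.4 CPM in control. Kupffer cell markers (2 higher and 2 lower of 6) and sinusoidal endothelial markers (1 higher and 2 lower of 6) went both ways. So did stellate cell markers (3 higher and 2 lower of 5). Beside these marker counts, 26.6% of all genes tested were called higher and 21.3% lower. Ribosomal RNA took 0.816% to 5.79% of the counts in model libraries and 0.120% to 1.98% in control libraries. One control library, control 6, had the lowest CPM among the controls for all 11 constitutive core genes described below. Some of the results below are also given without it.

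The proteasome has a barrel-shaped core particle built of alpha and beta rings, in which 3 beta subunits cut peptide bonds, and a regulatory particle that binds ubiquitin chains and unfolds substrates. Interferon gamma and other inflammatory signals are known to induce alternative catalytic subunits, Psmb8, Psmb9 and Psmb10, which take the places of Psmb5, Psmb6 and Psmb7 when new core particles are assembled. The resulting immunoproteasome cuts proteins into peptides that fit MHC class I molecules, and resting hepatocytes are known to contain mainly the constitutive form.

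Promoter windows of 250 bases before to 50 bases after the start are shown for Psmb8, Psmb9 and Psmb5, because the first and second carried the increase described below and Psmb5 is the constitutive partner of Psmb8. The windows come from RefSeq on GRCm38.p6, a build other than the GRCm39 of the counts, and 43 of the 51 members had an entry. Psmb8 lies at chr17:34197945-34198244 on the plus strand, Psmb9 at chr17:34187281-34187580 on the minus strand and Psmb5 at chr14:54617946-54618245 on the minus strand. Capitals mark a match to TTCNNNGAA, the interferon gamma-activated site (GAS), in Psmb8, and a match to TGACNNNGC, the antioxidant response element (ARE) core read by NRF1 and NRF2, in Psmb5.
Psmb8: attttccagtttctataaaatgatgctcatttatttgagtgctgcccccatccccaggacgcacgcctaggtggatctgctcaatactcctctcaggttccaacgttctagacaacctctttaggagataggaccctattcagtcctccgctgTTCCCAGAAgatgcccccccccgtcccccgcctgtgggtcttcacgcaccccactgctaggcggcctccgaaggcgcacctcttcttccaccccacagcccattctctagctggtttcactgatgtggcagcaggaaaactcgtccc
Psmb9: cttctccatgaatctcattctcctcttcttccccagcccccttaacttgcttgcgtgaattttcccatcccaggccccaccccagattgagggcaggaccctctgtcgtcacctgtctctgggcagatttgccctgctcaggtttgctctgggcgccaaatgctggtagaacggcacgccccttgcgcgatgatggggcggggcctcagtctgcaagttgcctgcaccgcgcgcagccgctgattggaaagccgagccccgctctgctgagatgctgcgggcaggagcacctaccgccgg
Psmb5: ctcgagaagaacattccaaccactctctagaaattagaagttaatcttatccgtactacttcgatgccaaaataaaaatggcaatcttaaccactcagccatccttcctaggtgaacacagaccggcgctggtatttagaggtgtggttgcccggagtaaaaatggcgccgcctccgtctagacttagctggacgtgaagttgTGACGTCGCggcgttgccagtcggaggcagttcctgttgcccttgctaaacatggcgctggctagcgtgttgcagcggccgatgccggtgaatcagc
The Psmb9 window held no match to the motifs searched, and 275 of its bases are shared with the window of Tap1, the peptide transporter gene that starts in the opposite direction at this place. Both strands were searched for each motif. The GAS palindrome was in 3 of 43 members (Psmb8, Psmd2 and Psmg1) and in 8.3% of 32851 promoter windows. The interferon-stimulated response element (ISRE), searched as GAAA, any 2 bases and GAAA, was in 5 of 43 members (Psmb3, Psmd4, Psmd9, Psme1 and Psmg4) and in 3.44% of all windows. The ARE core was in 6 of 43 members (Psmb5, Psmb6, Psmc6, Psmd12, Psmd9 and Psme4) and in 12.4% of all windows. The NF-kB site, searched as GGGA, any base and TTTCC, was in no member and in 0.411% of all windows. A match describes these letters only.

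The immune catalytic subunits Psmb8 and Psmb9 were about 2-fold higher in model livers, while the third, Psmb10, and the constitutive subunits Psmb5, Psmb6 and Psmb7 did not pass the test. Psmb8, the immune chymotrypsin-like subunit, lay at 57.3, 79.5 and 97.7 CPM in model livers (lowest, median and highest of 8) and at 24.0, 36.9 and 60.5 CPM in control livers (of 6). Only control 1, at 60.5 CPM, reached into the model range, above model 7 and model 2. The log2 fold change was 1.03 (SE 0.22, adjusted p = 0.00107, edgeR). Psmb9, which takes the caspase-like position, lay at 30.9, 48.5 and 72.1 CPM in model livers and at 14.2, 23.9 and 34.3 CPM in control livers. Control 1 and control 4 were above the lowest model livers, model 4 and model 7, so the groups overlapped slightly. Psmb9 rose by 1.01 on the log2 scale (SE 0.25, adjusted p = 0.00284). Psmb10, which takes the trypsin-like position, lay at 35.0, 54.7 and 75.8 CPM in model livers and at 27.4, 43.8 and 61.0 CPM in control livers. Most of its values lay in a shared range, and its log2 fold change was 0.34 (SE 0.22, adjusted p = 0.205).

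The constitutive chymotrypsin-like subunit Psmb5 lay at 22.6, 38.4 and 67.2 CPM in model livers and at 18.5, 48.0 and 79.5 CPM in control livers. Its log2 fold change was -0.18 (SE 0.31, adjusted p = 0.649) and turned positive without control 1 (0.0091) and without model 7 and model 8 (0.016). Psmb6, the constitutive caspase-like subunit, lay at 97.5, 169.0 and 292.6 CPM in model livers and at 108.0, 246.5 and 357.1 CPM in control livers (log2 fold change -0.37, SE 0.31, adjusted p = 0.344). Psmb7, the constitutive trypsin-like subunit, lay at 101.1, 127.4 and 183.9 CPM in model livers and at 113.6, 195.9 and 255.6 CPM in control livers. Its log2 fold change was -0.50 (SE 0.22, adjusted p = 0.0656), and it was called lower with 7 of 23 alternative settings, among them DESeq2. At an unadjusted p under 0.05, 1 of these 3 constitutive genes, Psmb7, was lower. Where genes on the other strand overlap, reads of Psmb8, Psmb9 and Psmb7 may be miscounted or left out. The counting strand is not stated. Gm20496 overlaps 14.7% of the exonic length of Psmb8, Tap1 5.79% of that of Psmb9 and Nek6 11.8% of that of Psmb7. On the same strand, Mir686 overlaps 12.1% of the exonic length of Psmb5.

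**Figure D1:**
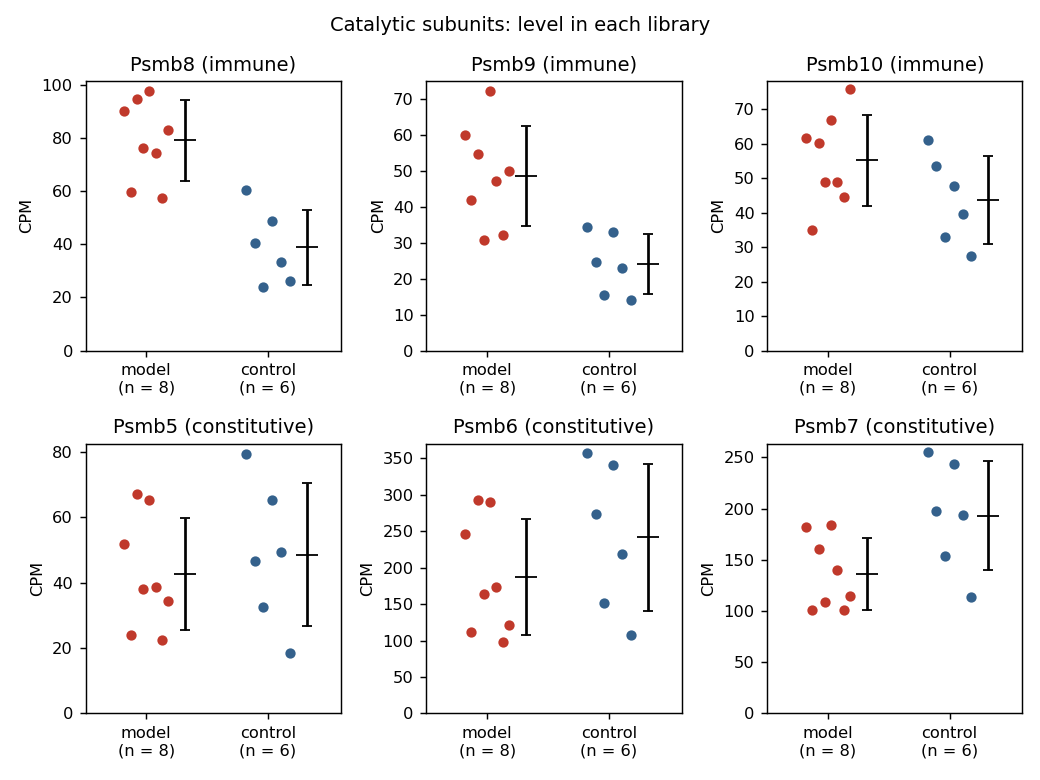
CPM of the immune (upper row) and constitutive (lower row) catalytic subunits in each library, with the model livers left of the control livers; horizontal marks and bars are the mean and SD. Psmb8 reached 57.3 to 97.7 CPM in model and 24.0 to 60.5 CPM in control, while the groups of Psmb5 and Psmb6 shared most of their range.

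Levels per length set the subunits side by side. Per kilobase of principal transcript, Psmb6 stood at 235 CPM in model and 303 CPM in control, and Psmb7 at 118 CPM in model and 167 CPM in control. In the model livers, Psmb8 (48.6 CPM per kb), Psmb5 (47.6), Psmb10 (42.2) and Psmb9 (36.0) followed close together. In the control livers, the order below Psmb7 was Psmb5 (54.1 CPM per kb), Psmb10 (33.4), Psmb8 (23.9) and Psmb9 (17.9). The immune subunits made up 25.0% ± 4.42 of the summed catalytic level per kilobase in model livers (SD, n = 8, range 19.97% to 33.5%) and 12.9% ± 1.52 in control livers (SD, n = 6, range 11.4% to 15.7%). Every model liver was above every control liver in this share, and control 6 was the highest control. With the union of all exons as the length, a choice made after seeing the data, the share was 28.0% in model and 15.9% in control.

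The ratio of an immune subunit to the constitutive subunit it replaces was formed within each library, so that library scaling cancels. All 3 ratios were higher in model livers. The log2 ratio of Psmb8 to Psmb5 was 0.49, 0.97 and 1.34 in model livers (lowest, median and highest) and -0.57, -0.40 and 0.50 in control livers. All model livers but model 3 lay above every control liver, and the control liver that model 3 did not pass was control 6. The means differed by 1.22 (0.96 ± 0.33 in model, -0.25 ± 0.39 in control, SD), a 2.33-fold higher ratio, with a two-sided exact permutation p of 0.000666 over 3003 splits (adjusted over 3 pairs 0.000666), and by 1.37 without control 6.

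The log2 ratio of Psmb9 to Psmb6 was -2.42, -1.94 and -1.28 in model livers and -3.46, -3.33 and -2.93 in control livers, with all 8 model livers above all 6 control livers. The means differed by 1.40 (-1.88 ± 0.43 in model, -3.28 ± 0.19 in control, SD), a 2.64-fold higher ratio. The log2 ratio of Psmb10 to Psmb7 was -1.57, -1.43 and -0.60 in model livers and -2.35, -2.15 and -1.89 in control livers, again without overlap. Here the means differed by 0.84 (-1.30 ± 0.32 in model, -2.14 ± 0.17 in control, SD), a 1.79-fold higher ratio, although neither gene of this pair passed the test alone. Both ratios had a two-sided exact permutation p of 0.000333, the smallest that 3003 splits allow (adjusted over 3 pairs 0.0004995). Model 8 had the highest ratio for this last pair, -0.60, and without it the difference was 0.74.

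The immune share within each pair followed the same order. Psmb8 held 51.9% ± 5.63 of the level per kilobase of its pair in model and 31.9% ± 6.09 in control. Psmb9 held 14.1% ± 3.58 in model and 5.76% ± 0.750 in control, and Psmb10 26.6% ± 4.63 in model and 16.7% ± 1.68 in control (SD, n = 8 and 6). Leukocytes are known to express immune subunits. Markers of neutrophils, of monocytes and macrophages, and of T and NK cells were higher in the same livers (10 of 10, 5 of 7 and 6 of 7), with the sums given above. Of the dendritic cell markers 2 of 3 tested were higher, and those of B cells were not called. Kupffer cell markers went both ways (2 higher and 2 lower of 6). Of all genes tested, 26.6% were called higher and 21.3% lower. The part of these cells in the ratios was not tested. In whole liver, a change in the number of cells of a type and a change of RNA per cell cannot be told apart. The members of a pair differ in length and base composition. With a per-library correction for both, chosen after seeing the data, the differences were 0.97 for Psmb8 to Psmb5, 1.27 for Psmb9 to Psmb6 and 0.91 for Psmb10 to Psmb7, each with an exact permutation p of 0.000333.

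**Figure D2:**
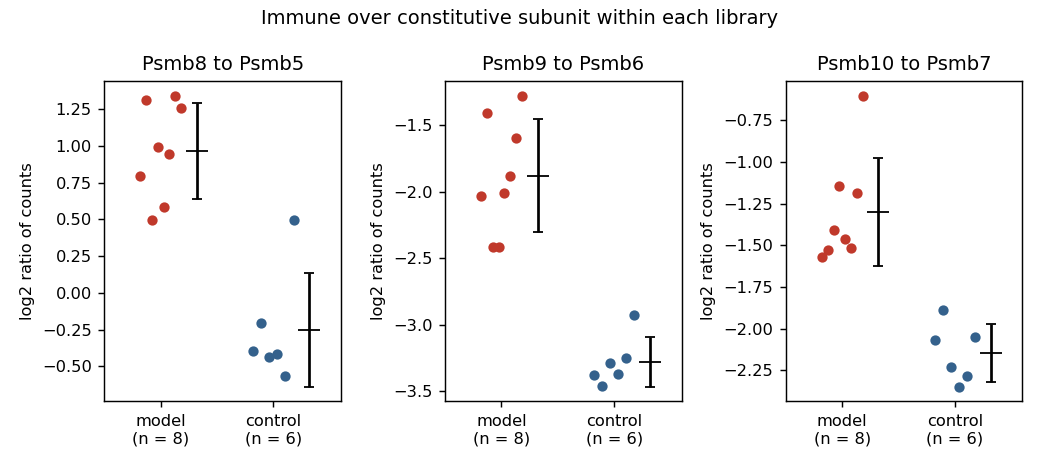
Log2 ratio of counts of the immune to the constitutive subunit of each pair within each library, with model livers left of control livers and the mean and SD beside them. The groups do not overlap for Psmb9 to Psmb6 and Psmb10 to Psmb7, and control 6, at 0.50, is the control that reaches the model range for Psmb8 to Psmb5.

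Across all 49 members tested, 3 were called higher in model livers, namely Psmb8, Psmb9 and Psme3, and 12 were called lower. Of all 12915 genes tested, 26.6% were called higher and 21.3% lower, 47.9% in all. The members' shares were 6.12% higher and 24.5% lower, so the share of lower calls was near that of all genes in this fit. The median log2 fold change was -0.39 over the 49 members and 0.0099 over all genes tested, and 39 members were below 0. At least 2-fold, Psmb8 and Psmb9 were higher (4.08% of members, 20.3% of all genes) and Psmd5, Psmd9 and Psmg3 were lower (6.12% of members, 12.7% of all genes). The group ranges did not overlap for Psmd5 and Psmd9, both lower (4.08% of members, 8.63% of all genes), and for no member that was higher (14.6% of all genes).

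The count of lower calls differed between settings. It was 20 with DESeq2, 25 with upper-quartile factors, 29 with library totals and 29 with an offset for length and GC content, beside 3, 3, 2 and 3 higher calls. These last 3 settings also moved the median of all genes, to -0.14, -0.23 and -0.21, and that of the members to -0.54, -0.60 and -0.55. Without control 6, 20 members were lower and 3 higher, beside 2809 lower of all 13043 genes tested there. Psmb8 and Psmb9 were called higher, and Psmb2, Psmc6, Psmd5, Psmd6, Psmd9, Psmg1, Psmg2 and Psmg3 lower, under every setting run. Most members are short. When all tested genes were put into 5 equal groups by exonic length, 15 of the 49 members fell into the group of the shortest genes and 1 into that of the longest. Over all genes, the median log2 fold change was -0.23 in the group of the shortest and 0.28 in that of the longest. The part of length in the members' values was not tested beyond the offset.

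**Figure D3:**
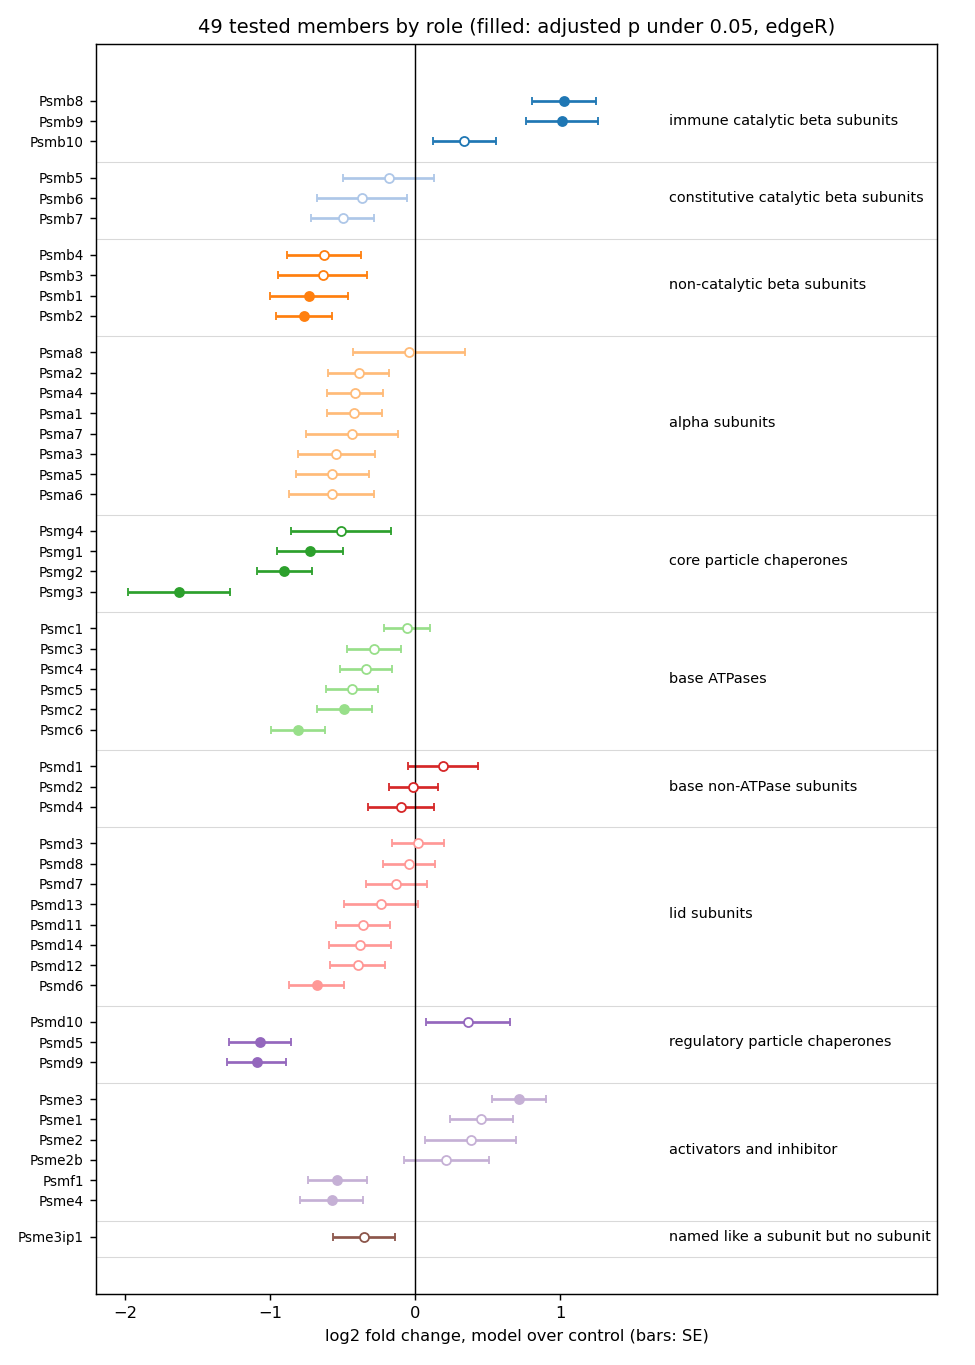
Log2 fold change of model over control for the 49 members tested, grouped by role, with SE as bars; filled points have an adjusted p under 0.05 in edgeR. Filled points to the right of 0 are Psmb8, Psmb9 and Psme3, and Psmg3, at -1.63, is farthest to the left.

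Among the structural subunits of the core particle, Psmb1 and Psmb2 were called lower and the other 10 were not called, beside 21.3% of all genes called lower. Of the 4 non-catalytic beta subunits, Psmb1 (log2 fold change -0.73, SE 0.27, adjusted p = 0.0322) and Psmb2 (-0.77, SE 0.19, adjusted p = 0.00291) fell, while Psmb3 and Psmb4 were at -0.64 and -0.63 with adjusted p of 0.0969 and 0.0505. Psmb2 lay at 49.7, 64.1 and 81.7 CPM in model livers and at 71.9, 115.9 and 143.2 CPM in control livers, so that control 6 and control 3, at 71.9 and 81.4 CPM, were the controls inside the model range. The call for Psmb1 was lost in 9 of 23 alternative settings, and that for Psmb2 in none of them. All 4 were called lower with library totals, upper-quartile factors or the length and GC offset.

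The 8 alpha subunits, which form the outer rings and the gate of the core particle, had log2 fold changes between -0.58 and -0.04. None was called by edgeR, although 3 were lower at an unadjusted p under 0.05. DESeq2 called 3 of them lower and limma-voom none, while library totals gave 7 and leaving out control 6 gave 6. Over all genes, each of these settings also called more genes lower than the 2751 of 12915 in the main fit. Without control 6 it was 2809 of 13043. The median log2 fold change of all genes was -0.028 with DESeq2, -0.0033 with limma-voom, -0.23 with library totals and 0.098 without control 6. Psma6 was at -0.58 (SE 0.29, adjusted p = 0.115) and Psma7, the alpha subunit with the highest level per kilobase, at -0.44 (SE 0.31, adjusted p = 0.267). Psma8, a subunit of the testis form, stood at 1.39 ± 0.840 CPM in model and 1.45 ± 0.661 CPM in control. Its log2 fold change was -0.04 (SE 0.39).

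Summed over the 11 constitutive core genes that are neither catalytic nor specific to testis (Psma1 to Psma7 and Psmb1 to Psmb4), the level was 922, 1373 and 1942 CPM in model livers and 1063, 2086 and 2925 CPM in control livers (lowest, median and highest). These genes moved together from library to library within a group. Model 2, model 4 and model 7 were below the median of their group for all 11 genes, as were control 3, control 5 and control 6 among the controls. For each library, the median deviation of log2(CPM + 1) from the mean of each gene was taken over the shortest and the longest of the 5 length groups of all tested genes. The shortest minus the longest was -0.98 in model 7, -0.72 in model 2 and -0.14 in model 4, and it was -0.63 in model 8, which is not among the libraries named. Among the controls it was -0.77 in control 6, -0.29 in control 3 and 0.20 in control 5, against 0.91 in control 1 and 0.82 in control 4, the controls with the highest sums. Its part in the core sum was not tested.

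**Figure D4:**
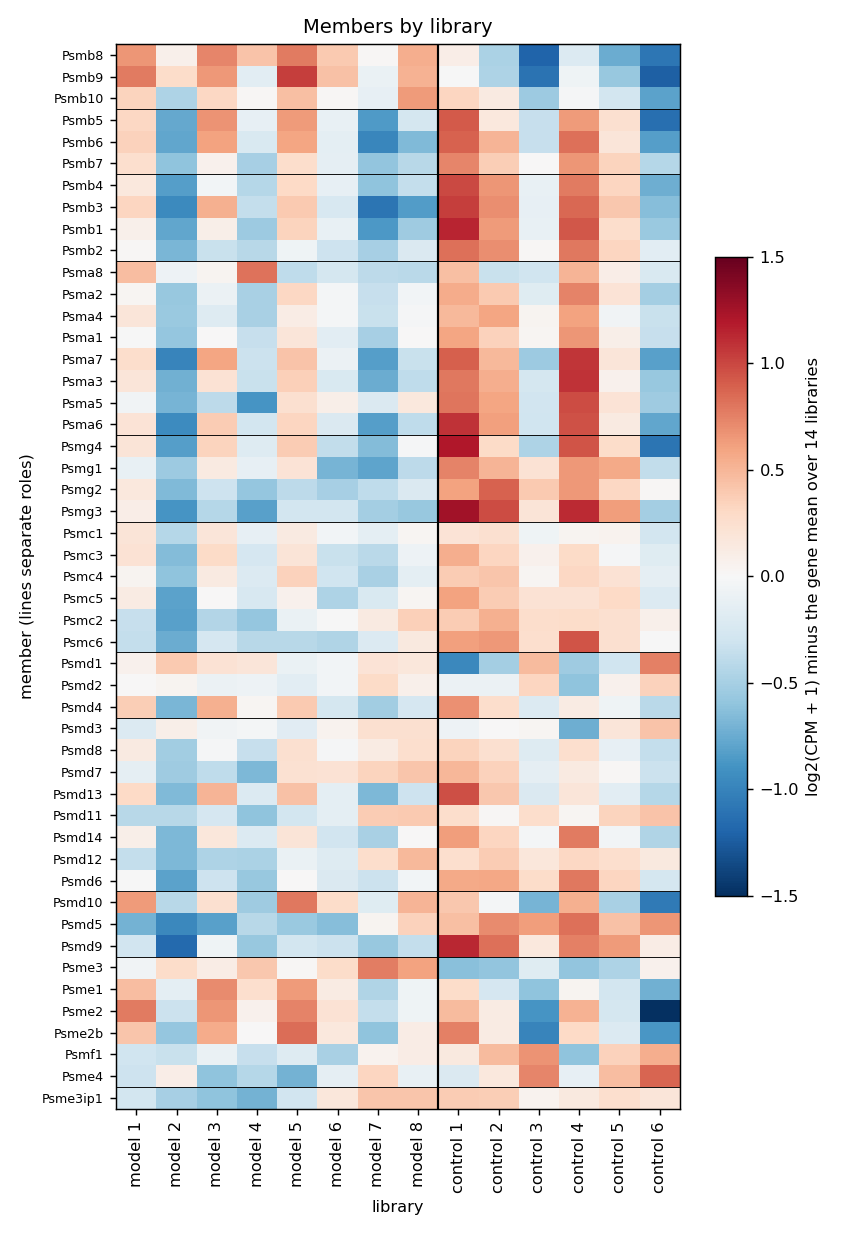
Log2(CPM + 1) of each tested member minus its mean over the 14 libraries, with model libraries left of control libraries and lines between role classes. Core genes of control 1 and control 4 are red and those of model 2, model 7 and control 6 are blue, whereas Psmb8 and Psmb9 are red in most model libraries and blue in control 3 and control 6.

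Assembly chaperones held the largest decreases among the members. Psmg3, which with Psmg4 helps alpha rings to form, lay at 0.736, 1.32 and 2.43 CPM in model livers and at 1.26, 4.63 and 6.68 CPM in control livers. Control 6, at 1.26 CPM, and control 3, at 2.67 CPM, were the lowest controls, and control 6 was the one inside the model range. Psmg3 fell by 1.63 on the log2 scale (SE 0.35, adjusted p = 0.000997). It was the least abundant of the called members, and Gm26938 on the same strand overlaps 9.68% of its exonic length.

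Psmg2, the partner of Psmg1 in another alpha-ring chaperone, lay at 8.09, 9.95 and 15.0 CPM in model livers and at 13.5, 19.4 and 25.6 CPM in control livers. Model 1, at 15.0 CPM, stood above the other model livers and above control 6. Psmg2 fell by 0.90 (SE 0.19, adjusted p = 0.000818), and Psmg1 fell by 0.72 (SE 0.23, adjusted p = 0.0136). Psmg4 was not called (-0.52, SE 0.35, adjusted p = 0.229). The chaperone Pomp, which guides beta subunits into place and helps immunoproteasome assembly, lay at 145 ± 42.0 CPM in model and 209 ± 100.4 CPM in control (log2 fold change -0.53, SE 0.29, adjusted p = 0.138).

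The chaperones of the regulatory particle, which assist assembly of its ATPase ring, moved unequally. Psmd5 lay at 10.3, 13.7 and 27.0 CPM in model livers and at 29.0, 33.6 and 38.4 CPM in control livers. All model livers were below all control livers, with model 7 and model 8 nearest to them at 21.7 and 27.0 CPM. Psmd5 fell by 1.07 (SE 0.21, adjusted p = 0.000516). Psmd9 lay at 16.2, 29.5 and 35.8 CPM in model livers and at 40.8, 61.5 and 83.4 CPM in control livers, again without overlap, and fell by 1.10 (SE 0.20, adjusted p = 0.000249). The noncoding gene Gm26745 on the other strand overlaps 25.5% of the exonic length of Psmd9. Psmd10, gankyrin, was at 29.8 ± 10.0 CPM in model and 23.2 ± 10.3 CPM in control and was not called (0.36, SE 0.29, adjusted p = 0.314).

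In the regulatory particle itself, 2 of 6 base ATPases, 0 of 3 other base subunits and 1 of 8 lid subunits were called lower. Among all genes tested, 21.3% were called lower. The base of the particle holds 6 ATPases that unfold substrates, of which Psmc6 and Psmc2 fell. Psmc6 lay at 54.1, 69.6 and 101.3 CPM in model livers and at 91.3, 124.7 and 176.8 CPM in control livers, where model 8, at 101.3 CPM, was the only model liver above the lowest control. Its log2 fold change was -0.81 (SE 0.18, adjusted p = 0.00146). Psmc2 was at -0.49 (SE 0.19, adjusted p = 0.0395) and lost its call in 10 of 23 alternative settings. The other 4 ATPases lay between -0.44 and -0.06. They were not called by edgeR, and 5 of the 6 ATPases were lower with library totals.

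The base subunits Psmd1 and Psmd2, which scaffold the particle, and Psmd4, a ubiquitin receptor, had log2 fold changes of 0.19, -0.01 and -0.10. None of these 3 passed by edgeR, none did so at an unadjusted p under 0.05, and none was called by DESeq2 or limma-voom. Of the 8 lid subunits, which remove ubiquitin chains, Psmd6 fell by 0.68 (SE 0.19, adjusted p = 0.00635). It lay at 53.2 ± 10.1 CPM in model and 85.3 ± 20.1 CPM in control (SD, n = 8 and 6). The other 7 lay between -0.40 and 0.02, including the deubiquitinase Psmd14 at -0.38 (SE 0.21, adjusted p = 0.148). Psme3ip1, which is no subunit, was at -0.36 (SE 0.21, adjusted p = 0.181).

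The activators that cap the core particle differed among themselves. Psme3, which forms the nuclear cap, was higher, while Psme4 and Psmf1 were lower and Psme1 and Psme2, the partners in the interferon-inducible cap, did not pass. Psme3 lay at 42.5, 53.6 and 76.0 CPM in model livers and at 28.3, 30.5 and 46.2 CPM in control livers. Control 6, at 46.2 CPM, was the only control above the lowest model livers, model 1 and model 5. Psme3 rose by 0.71 (SE 0.18, adjusted p = 0.00384). With library totals the log2 fold change was 0.47 and the call did not hold (adjusted p = 0.116).

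Psme1 lay at 97.2, 151.8 and 217.9 CPM in model livers and at 80.3, 110.8 and 161.4 CPM in control livers (log2 fold change 0.46, SE 0.22, adjusted p = 0.096). Leaving out model 7, control 1, or model 7 with model 8 brought a call for Psme1, with adjusted p as low as 0.014. Psme2 lay at 87.0, 123.0 and 192.1 CPM in model livers and at 33.7, 107.1 and 160.7 CPM in control livers (0.38, SE 0.31, adjusted p = 0.331). Control 6, at 33.7 CPM, and control 3, at 59.7 CPM, were its lowest libraries, and without control 6 the log2 fold change was 0.24. Psme2b, a near-identical copy of Psme2, was at 0.21 (SE 0.29, adjusted p = 0.569). Counts of this pair are uncertain, since reads that fit both copies may have been lost or split.

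Psme4, a large nuclear activator, lay at 31.3, 44.3 and 65.0 CPM in model livers and at 44.2, 64.5 and 95.7 CPM in control livers. The groups overlapped widely, and the log2 fold change was -0.58 (SE 0.22, adjusted p = 0.0364). Psmf1, first described as an inhibitor of the core particle, lay at 11.8, 14.1 and 18.4 CPM in model livers and at 10.8, 22.9 and 27.7 CPM in control livers. Control 4, at 10.8 CPM, was the lowest of all 14 libraries. Its log2 fold change was -0.54 (SE 0.20, adjusted p = 0.0362). The calls were lost in 11 of 23 alternative settings for Psme4 and in 12 of 23 for Psmf1, with adjusted p up to 0.137 and 0.0927.

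Genes that are known to regulate the immune subunits were higher almost throughout. Of 11 tested genes of interferon and NF-kB signalling, 10 rose, beside 26.6% of all genes called higher. Ifngr2 did not pass (0.41, SE 0.24, adjusted p = 0.165). The median log2 fold change of the 11 was 2.02, beside 0.0099 over all genes. Irf1, a transcription factor that drives the immune subunit genes, lay at 79.9 to 562.4 CPM in model and 15.4 to 24.9 CPM in control and rose by 3.86 (SE 0.47). Nlrc5, the transactivator of MHC class I genes, rose by 2.48 (SE 0.25). Nfkb1 rose by 2.91 (SE 0.34) and Tnf by 8.53 (SE 0.80), at 10.47 to 91.1 CPM in model and at most 0.128 CPM in control. Ifng itself was too low to test, with 27 counts over 5 of the 8 model libraries and none in control libraries, which is at least 5.61-fold higher against 3 counts over the control group.

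All 11 genes of MHC class I peptide loading rose, beside 26.6% of all genes called higher. The median log2 fold change of the 11 was 1.33, and they stayed called under library totals. The peptide transporter genes Tap1 and Tap2 rose by 3.26 (SE 0.24) and 2.41 (SE 0.24). Tap1 reached 83.5 to 142.8 CPM in model and 6.95 to 17.0 CPM in control. Its neighbour Psmb9, which shares 275 bases of its promoter window, rose by 1.01, and the group ranges of Psmb9 overlapped while those of Tap1 did not. Tapbp, tapasin, rose by 2.03 (SE 0.21) and the class I heavy chain gene H2-D1 by 1.94 (SE 0.17). Called higher among the same markers were 10 of 10 for neutrophils and 5 of 7 for monocytes and macrophages. So were 6 of 7 tested for T and NK cells and 2 of 3 tested for dendritic cells. Those of B cells were not called, and Kupffer cell markers went both ways (2 higher and 2 lower of 6). The part of these cells in the interferon and MHC lists was not tested.

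NRF1, encoded by Nfe2l1, is the factor that raises proteasome gene transcription when proteasome activity is short. A list of 7 genes held Nfe2l1, genes that process its product, and Nfe2l2, which encodes the related factor NRF2 and is no step of NRF1 activation. Of these, Nfe2l1 and Nfe2l2 rose, 1 fell and 4 did not pass, around a median of 0.14 on the log2 scale. Among all genes tested, 26.6% were called higher and 21.3% lower. Nfe2l1 lay at 54.5 to 101.8 CPM in model and 25.8 to 66.2 CPM in control and rose by 0.65 (SE 0.23, adjusted p = 0.0282), a call lost in 10 of 23 alternative settings. Nfe2l2 rose by 1.59 (SE 0.20), with 148 ± 35.6 CPM in model and 48.9 ± 10.7 CPM in control. Ngly1, the glycanase that activates NRF1, fell by 0.66 (SE 0.18, adjusted p = 0.00617), and its group ranges did not overlap. The median of this list turned negative with library totals (-0.10), upper-quartile factors (-0.02) and the length and GC offset (-0.06). The median of all genes moved as well, from 0.0099 with TMM factors to -0.23, -0.14 and -0.21 in these settings.

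Of 6 genes of ubiquitin and the ubiquitin-like protein FAT10, 3 rose, beside 26.6% of all genes called higher. Ubd, which encodes FAT10 and is known to be induced by tumour necrosis factor and interferon gamma, lay at 31.9 ± 14.6 CPM in model and 2.05 ± 1.16 CPM in control and rose by 3.99 (SE 0.45). The polyubiquitin gene Ubb rose by 1.13 (SE 0.19) and the activating enzyme Uba1 by 0.78 (SE 0.27). The call of Uba1 was lost in 6 of 23 alternative settings, library totals among them. Of 12 tested factors that bind or serve the proteasome, Ubqln1, a shuttle for ubiquitinated proteins, rose by 0.55 (SE 0.21, adjusted p = 0.0411). Ecpas, a proteasome adaptor (-0.63, SE 0.19), the ubiquitin ligase Ube3c (-0.55, SE 0.20) and the deubiquitinase Uchl5 (-0.47, SE 0.18) fell, beside 21.3% of all genes called lower. The calls of Ubqln1, Ube3c and Uchl5 were lost in 14, 7 and 11 of 23 alternative settings and that of Ecpas in none of them. Paaf1 was not analysed here.

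**Figure D5:**
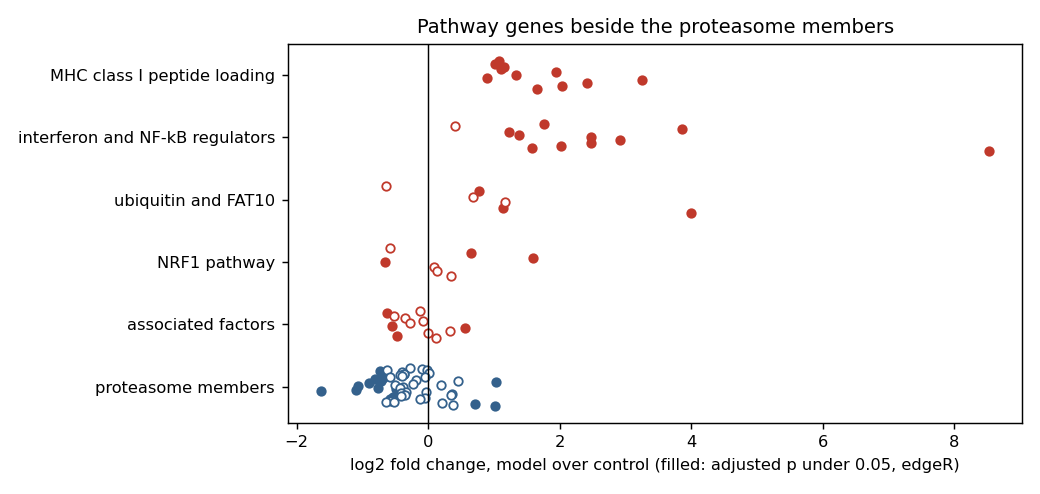
Log2 fold change of model over control for the tested genes of each pathway list (red) and for the 49 proteasome members (blue); filled points have an adjusted p under 0.05 in edgeR. The genes of MHC class I peptide loading lie between 0.90 and 3.26, all filled, and the proteasome members lie between -1.63 and 1.03.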

How the data were processed

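RNA sequencing counts of whole mouse liver were taken as deposited, 1 file per sample. The authors deposited raw read counts per gene; reads were aligned with HISAT2 to GRCm39, per the submitters' processing notes, while the sources used here do not give the counter, its annotation or its strand setting. Summary lines that name no gene (27.4% to 45.6% of entries, ambiguous reads 3.18% to 5.95%, reads aligned to several places 13.4% to 18.6%) were kept out of totals and tests. The depth per library, given in the report, limits the precision of low genes, and floors of 3 counts cover counting error only. Genes were kept with filterByExpr, which left 12915, and tested with edgeR 4.0.16 in R 4.3.3 (TMM factors, robust quasi-likelihood fit, group as the only term, Benjamini-Hochberg adjustment over all genes tested). Calls were made at adjusted p under 0.05. The SE was obtained from the fold change and the F statistic. All fold changes are model over control.

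Pair ratios used counts with 0.5 added and were compared by a two-sided exact permutation test over all 3003 splits of 14 libraries into 8 and 6, with adjustment over the 3 pairs. Levels per kilobase used the APPRIS principal transcript of GENCODE on GRCm38, matched by gene identifier. Alternatives were DESeq2 1.42.0, limma-voom (limma 3.58.1), library totals, upper-quartile factors, no low-count filter, a length and GC offset, replicate numbers as a term, each library left out, and leaving out model 3 with 4 (the most ribosomal RNA among model libraries) or model 7 with 8. Tests were first tested on simulated data. No library pair of a group agreed within sampling noise (43 pairs, smallest chi-square per degree of freedom 23.3). Motifs were searched in RefSeq promoter windows on both strands.

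The members, role classes and gene lists were chosen with earlier results of these data known. Values are given in full for the 6 catalytic subunits, Psme1 to Psme4, Psmf1 and up to 5 other called members in each direction by fold change, and up to 4 called genes of each pathway list; other members named were chosen after their values were seen. Some genes of the pathway lists are not reported here and were left out of the list counts.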

Additional observations from a re-analysis of the deposited data

Results flagged for a closer look

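Of 102 sets of group values tested for a library that stands apart, 4 met Dixon's criterion, and chance alone marks about 1 in 20. Psmg2 was at 15.0 CPM in model 1, with the next model liver at 11.4 CPM. The log2 ratio of Psmb8 to Psmb5 was 0.50 in control 6 and -0.20 in the next control. The log2 ratio of Psmb10 to Psmb7 was -0.60 in model 8 and -1.14 in the next model liver. The immune share of the catalytic level was 15.7% in control 6 and 12.9% in the next control. Of these 4 values, 2 were in control 6, the control with the lowest core sum.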

How the results depend on the processing

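Of all genes, 4427 were lower with the length and GC offset, against 2751 with TMM factors alone. Of the members, 20 were lower with DESeq2, 25 with upper-quartile factors, 29 with library totals and 29 with the length and GC offset, against 12. All 12 were among those called lower in each of these 4 settings. Leaving out 1 library at a time gave 8 to 20 lower members, 20 of them without control 6, of which 10 were among the 12. Over all genes it gave 2452 to 2809 lower calls. Psmb5 had log2 fold changes from -0.31 to 0.0091 when 1 library was left out, 0.016 without model 7 and model 8, and 0.074 with the replicate block. The cause of these shifts was not tested.

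The labels state no pairing by replicate numbers 1 to 6. Same-numbered model and control libraries had correlations of -0.34 to 0.36. These values cannot settle whether the numbers pair samples, since per-library trends such as that of length also enter them. With the replicate block on 12 libraries, 4 members were higher, Psme1 (log2 fold change 0.65) in addition to Psmb8, Psmb9 and Psme3, and 12 lower, and the differences in log2 ratio were 1.11 for Psmb8 to Psmb5, 1.25 for Psmb9 to Psmb6 and 0.71 for Psmb10 to Psmb7, each with an exact sign-flip p of 0.03125, the smallest that 6 pairs allow. The 3 pair ratios kept their direction and passed 0.05 in all 19 alternatives run for each. Depth limits Psmb11, Psmc3ip and Ifng, which were too low to test.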
